A study of Mus musculus with 2 samples.

Results

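Compact dense shared peaks are short stretches of the mouse genome where 5-hydroxymethylcytosine (5hmC) pull-down placed many sequencing tags in both of 2 libraries from embryonic stem (ES) cells. A peak of either list was taken if it lay on chromosomes 1 to 19, was under 2000 bp long, held under 100 tags, had a tag density of at least 4, and shared at least 1 bp with a peak called in the other library. Tag density is given throughout as tags per kb of peak and per 1000000 kept tags of the library. The rule took 582 of the 57827 peaks of the list labelled for ascorbic acid (AA) and 44 of the 63834 peaks of the list labelled without it, 626 of 121661 in all. Each list was taken on its own, and length, tags, density and overlap chose the peaks, so those values describe them and test nothing.

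The cells were mouse ES cells of strain 129SvEv in both groups. The AA-labelled library came from cells kept with 100 µM AA (vitamin C) for 24 h, and the label of the no-AA-labelled library names no incubation. DNA sheared to short fragments was enriched for 5hmC through a biotin tag, and each group had 1 library, so no replicate spread exists and no test between groups was made. The labels describe neither feeder cells nor passage, and peak lists hold no expression from which markers of ES cells could be checked. The header of each of the 2 lists carries the name of the other sample. The lists are called as they were recorded, and should the headers be right instead, each direction given here is the opposite.

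5hmC is made from 5-methylcytosine by the Tet dioxygenases, which need iron and 2-oxoglutarate, and AA is known to support the activity of such enzymes. In ES cells 5hmC is known to be frequent at enhancers, in gene bodies and around promoters of intermediate CpG content, and it can be a step towards unmethylated cytosine. A pull-down counts fragments that carry 5hmC, so the tags of a peak depend on how many modified cytosines a stretch holds and on how many cells and copies carry them. Positions are on mouse build mm9. The regions are given by position and without gene names, since no mm9 annotation was used.

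The AA-labelled library held 11907082 kept tags and the no-AA-labelled library 18398162 (1.55 times that number). The fragment lengths estimated by the peak caller were 229 and 165 bp. A tag density of 4 therefore stood for 47.6 AA-labelled or 73.6 no-AA-labelled tags per kb. With the limit of 100 tags, a no-AA-labelled peak longer than 1359 bp could not be taken. In the AA-labelled list 100 tags gave a density of 4 at 2100 bp, past the length limit of 2000 bp, but the tag limit still left out more peaks. Of the autosomal peaks that reached this density at any size, 322 of 1042 AA-labelled and 127 of 178 no-AA-labelled held 100 tags or more. Many of these were past the length limit too, since 260 AA-labelled and 68 no-AA-labelled dense peaks were 2000 bp or longer. A further 5 AA-labelled and 0 no-AA-labelled peaks were left out for their length alone. Without the tag limit, but with the length limit kept, the lists had 645 and 89 members.

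The AA-labelled list thus held 582 compact dense shared peaks (95% exact Poisson interval 536 to 631) and the no-AA-labelled list 44 (32.0 to 59.1), a log2 ratio of 3.73. Their shares of the compact shared autosomal peaks were 2.46% of 23645 (Clopper-Pearson 2.27% to 2.67%) in the AA-labelled list and 0.172% of 25636 (0.125% to 0.230%) in the no-AA-labelled list. Which list had more members depended on the scaling of the tags. With tags scaled to those inside autosomal peaks the numbers were 105 and 207 (log2 ratio -0.98), and with 1 unscaled threshold for both lists they were 44 and 195 (-2.15). Of all kept tags, 16.5% lay in autosomal AA-labelled peaks and 11.5% in autosomal no-AA-labelled peaks. These intervals, and those below, cover counting error only.

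**Figure D1:**
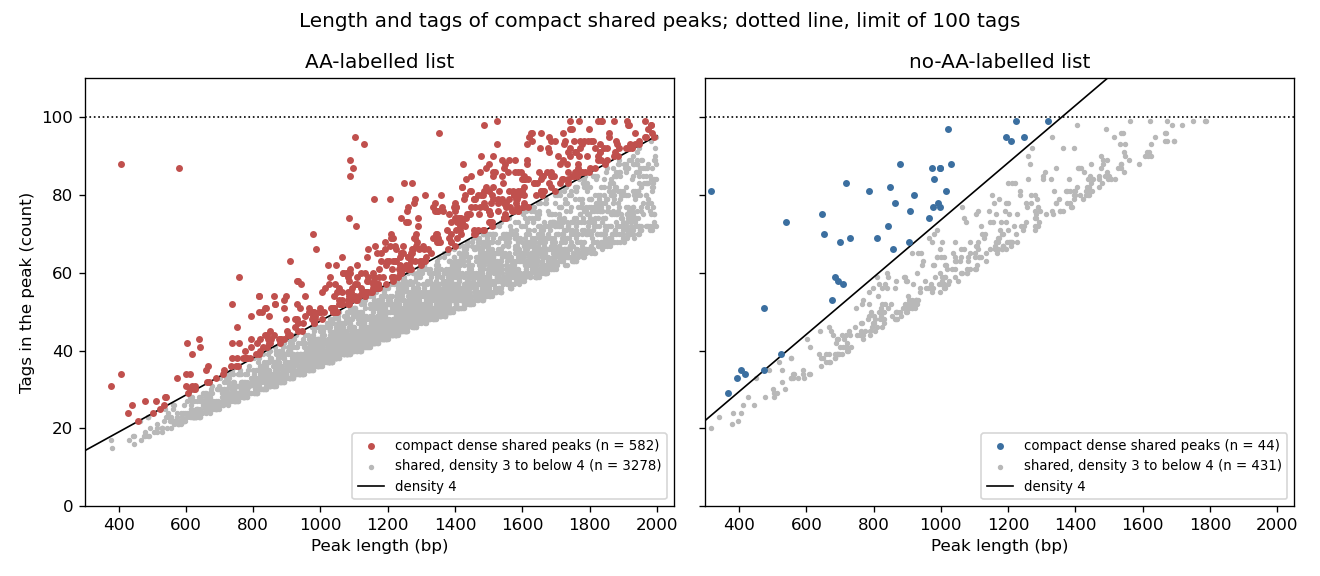
Length in bp (horizontal) and tags (vertical) of compact shared autosomal peaks with a tag density of at least 3 in the AA-labelled list (left) and the no-AA-labelled list (right). Coloured points are the 582 and 44 compact dense shared peaks above the line for a density of 4, grey points are shared peaks below it, and most of the AA-labelled ones lie close to that line.

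Most of the AA-labelled members lay just above the threshold. Their densities ran from 4.00 to 18.2 with a median of 4.29 and quartiles of 4.11 and 4.60. The no-AA-labelled members ran from 4.00 to 13.98 with a median of 4.64 and quartiles of 4.28 and 5.14. Just inside the threshold in the AA-labelled list were chr6:38315532-38317147 and chr3:6607354-6608864, both at 4.002, and just outside were chr6:116528011-116529144, chr1:22880351-22881610 and chr8:66156841-66157743, each at 3.999. In the no-AA-labelled list the nearest inside were chr5:15112607-15113081 at 4.005 and chr5:37051910-37052434 at 4.038. The nearest outside were chr8:124236009-124236457 at 3.995 and chr9:38447928-38448738 at 3.954. The AA-labelled set is thus the upper edge of a continuous range, and 3860 AA-labelled peaks would pass with a density of at least 3.

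The members were compact only in the sense of the length limit. In the AA-labelled list they had a median length of 1296 bp (376 to 1992 bp) and 70 tags (22 to 99), whereas the 23063 less dense compact shared peaks had medians of 1045 bp and 28 tags. In the no-AA-labelled list the members had a median of 854 bp (315 to 1318 bp) and 76.5 tags (29 to 99), against 864 bp and 32 tags in the 25592 others. By these medians the members differed from the rest in tags more than in length, and in neither list were they shorter by over 10 bp. Of the AA-labelled members 460 of 582 were at least 1000 bp long, and of the no-AA-labelled members 8 of 44. All members together held 0.335% of the AA-labelled and 0.0172% of the no-AA-labelled kept tags.

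The authors' caller worked out the fold enrichment at each peak against a local background within the same library. It was higher in the members than in the other compact shared peaks. Fold rests on the tags, which also chose the members, so it describes them and tests nothing. Its median was 10.0 (3.45 to 38.8) in the AA-labelled members, against 8.59 in the less dense peaks of that list. No-AA-labelled medians were 12.5 (5.95 to 41.0) in the members and 7.13 in the rest. A fold of at least 20 was reached by 34 of 582 AA-labelled and 8 of 44 no-AA-labelled members, and by 41 of 23063 and 9 of 25592 of the others. Dense did not always mean a high fold: 49 AA-labelled members and 1 no-AA-labelled member stayed under 6-fold. An example is the AA-labelled peak chr6:47722231-47723319, with 85 tags, a density of 6.56 and a fold of 4.74. Less dense shared peaks of 50 to 99 tags had median folds of 7.61 in the AA-labelled and 5.95 in the no-AA-labelled list.

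The densest members were a small set of sites, most of them dense in both libraries. The densest of the AA-labelled list was chr13:77578040-77578446, with 88 tags (Poisson 70.6 to 108) and a density of 18.2. Its no-AA-labelled counterpart, chr13:77578103-77578400, had 100 tags and a density of 18.2, and the limit of 100 tags alone kept it out of the no-AA-labelled members. Both libraries thus had the same density there, with a log2 ratio of -0.01 (-0.44 to 0.42).

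Next in the AA-labelled list were chr14:86598666-86599243 at a density of 12.6, chr4:145713641-145714743 at 7.23, chr9:24346326-24346731 at 7.03 and chr8:124236146-124236521 at 6.92. The other 5 of the 10 densest, at 6.53 to 6.91, lay on chromosome 4 (chr4:146549957-146551086 and chr4:3179605-3180692), chromosome 19 (chr19:45724186-45725283), chromosome 6 (the low-fold peak given above) and chromosome 14 (chr14:22130922-22131680). Of these 10 AA-labelled peaks, 5 had a counterpart that was itself a no-AA-labelled member, and the other 5 counterparts had densities of 3.51 to 18.2.

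The densest no-AA-labelled member was chr10:80640734-80641048, with 81 tags in 315 bp and a density of 13.98. A second member, chr10:80641300-80642321, with 97 tags and a density of 5.16, began 252 bp further on. In the AA-labelled list both fell inside 1 peak of 3564 bp (chr10:80640669-80644232), with 170 tags and a density of 4.01, which was too long and too rich in tags for the rule. The log2 density ratio of -1.80 (-2.19 to -1.40) for the first of them compares peaks of very unequal length and is not a difference at matched bases.

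Then came chr14:86598473-86599011 at 7.36, chr19:45724313-45724959 at 6.30, chr14:9118823-9119540 at 6.28 and chr9:24346194-24346666 at 5.86. Ranked 6 to 10 were chr4:145271892-145272544 at 5.83, chr6:47722599-47723383 at 5.61, chr8:72085582-72086458 at 5.45, chr14:7815227-7815925 at 5.29 and chr4:145728178-145729027 at 5.24. The AA-labelled counterparts of these chromosome 4 sites, at 3.63 and 2.70, and of the site at 7815227, at 2.78, were below a density of 4. The AA-labelled peak over the chromosome 14 site at 9118823 had 104 tags, a density of 10.5 and a fold of 27.4. It was one of 6 AA-labelled peaks over no-AA-labelled members that reached a density of 4 but were past a size limit, the chromosome 10 peak among them.

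In 16 pairs the AA-labelled and the no-AA-labelled peak were both members, and these are the sites that the rule finds from either library. They were 16 of the 582 AA-labelled members (2.75%, Clopper-Pearson 1.58% to 4.43%) and 16 of the 44 no-AA-labelled members (36.4%, 22.4% to 52.2%). These shares depend on the unequal numbers: with the no-AA-labelled threshold lowered until 584 of its peaks were taken, 18.2% of either set had a counterpart in the other. The 16 pairs lay on chromosomes 14 (4 pairs), 4, 8 and 13 (2 each), and 3, 5, 6, 9, 18 and 19 (1 each). Density ran from 4.01 to 12.6 with a median of 5.10 in the AA-labelled peaks, and from 4.00 to 7.36 with a median of 4.62 in the no-AA-labelled peaks.

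The summits of the 16 pairs lay close together. Their distance had a median of 22 bp (12 to 67 bp over pairs) and stayed within 100 bp in 15 of 16 pairs. The exception was the pair on chromosome 13 at 66163270, with 155 bp. For all AA-labelled and all no-AA-labelled members the median distance to the counterpart's summit was 101 and 36 bp, and over all 23546 pairs of compact autosomal peaks it was 106 bp. The summit position was not part of the rule. In 9 of the 16 pairs the no-AA-labelled peak lay wholly inside the AA-labelled one.

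Of the 16 pairs, 13 had the higher density in the AA-labelled library, but for 14 of them the counting interval of the log2 ratio reached across 0. The median ratio was 0.14 (0.01 to 0.26 over pairs). In the same 16 pairs it was -0.39 with scaling to tags in autosomal peaks, where 2 pairs were higher in the AA-labelled library, and -0.49 without scaling, where 1 was. By fold enrichment 7 of the 16 were higher in the AA-labelled list.

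The highest ratio was at chr14:86598666-86599243, with 87 AA-labelled tags against 73 no-AA-labelled tags, densities of 12.6 and 7.36, which is a log2 ratio of 0.78 (0.31 to 1.25). At chr4:146549957-146551086 there were 93 and 87 tags and a ratio of 0.54 (0.10 to 0.98). With scaling to kept tags these were the 2 pairs whose interval stayed above 0, and they are the extremes of 16 pairs. Scaling to tags in autosomal peaks shifts every log2 ratio by -0.53, and neither interval then stays above 0. Then followed the pairs on chromosome 18 (at 49550903) with 72 and 74 tags and a ratio of 0.39, chromosome 9 (at 24346326) with 34 and 51 tags and 0.26, and chromosome 14 (at 43986251) with 52 and 53 tags and 0.24.

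The lowest ratio was at chr8:72085595-72086413, with 43 tags in the AA-labelled and 88 in the no-AA-labelled peak, densities of 4.41 and 5.45, which is a ratio of -0.31 (-0.87 to 0.24). The pairs on chromosome 13 at 66163270 (39 and 57 tags) and at 12981406 (58 and 76 tags) had ratios of -0.13 and -0.11. The pair at chr5:15112593-15113114 (25 and 35 tags) and the pair on chromosome 3 at 8245776 (69 and 35 tags) had ratios of 0.01 and 0.03. On chromosome 3 the tags differed and the density did not, because the AA-labelled peak was 1209 bp long and the no-AA-labelled peak 405 bp.

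**Figure D2:**
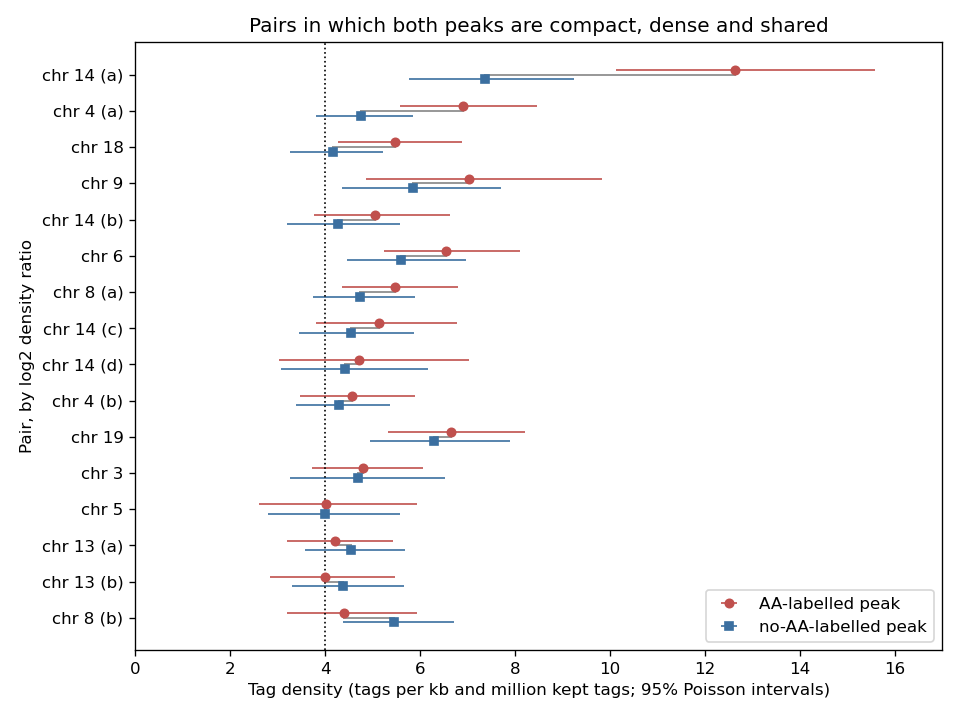
Tag density, in tags per kb and 1000000 kept tags, of the AA-labelled peak (circles) and the no-AA-labelled peak (squares) in the 16 pairs in which both are members, with 95% Poisson intervals, ordered by their log2 ratio (letters tell apart pairs of 1 chromosome). The intervals of most pairs overlap, and the pair on chromosome 14 with densities of 12.6 and 7.36 stands at the top.

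By fold enrichment the pairs were led by the same chromosome 14 site at 86598666, with 34.4 in the AA-labelled list and 41.0 in the no-AA-labelled list, and by chromosome 9 with 29.1 and 33.0. The pair at chr14:125067449-125067875 followed with 23.8 and 28.5, on only 24 AA-labelled and 34 no-AA-labelled tags. The pairs on chromosome 3 (21.1 and 19.1), chromosome 4 at 70038620 (16.8 and 22.2) and chromosome 14 at 43986251 (22.3 and 13.6) came next. The remaining 4 of the first 10, on chromosomes 18, 13 (at 12981406), 19 and 5, had AA-labelled folds of 15.5 to 18.9 and no-AA-labelled folds of 14.7 to 20.04.

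How dense the other library was at a member's site was not used by the rule beyond the overlap itself. The no-AA-labelled counterparts of the 582 AA-labelled members had a median density of 2.51 (2.45 to 2.57 over peaks, quartiles 2.23 and 2.89). Those of the less dense AA-labelled peaks had a median of 1.96. Since members hold more tags than other peaks, they were also set beside the 3016 less dense shared peaks of 50 to 99 tags, whose counterparts had a median of 2.25. A density of 2.54 or more marked the densest 10% of the no-AA-labelled compact shared peaks. Of the members' counterparts 47.8% (43.6% to 51.9%) reached that density. Counterparts past a size limit were counted too, and 37 of the 582 held 100 tags or more. For the less dense peaks of 50 to 99 tags this was 22.9% (21.4% to 24.5%), and for the members of 50 to 99 tags 50.5% (46.0% to 55.0%).

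The AA-labelled counterparts of the 44 no-AA-labelled members had a median density of 4.01 (3.79 to 4.41), against 2.29 for the less dense no-AA-labelled peaks and 2.80 for the 4920 of them with 50 to 99 tags. A density of 3.28 or more marked the densest 10% of the AA-labelled compact shared peaks. Of these counterparts 33 of 44 (59.7% to 86.8%) reached that density, and those past a size limit were counted too. For the less dense peaks of 50 to 99 tags it was 26.5% (25.2% to 27.7%). Sites chosen for density in either library thus more often had a counterpart that reached this mark of the other list. A density of 4 was reached by 27 of the 582 no-AA-labelled counterparts, of which 11 were past a size limit, and by the AA-labelled counterparts of 23 of the 44 no-AA-labelled members. Of these 23 members, 7 had a counterpart past a limit, in 6 distinct peaks. Among less dense peaks of 50 to 99 tags, 14 of 3016 AA-labelled and 381 of 4920 no-AA-labelled ones had a counterpart of density 4 or more.

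**Figure D3:**
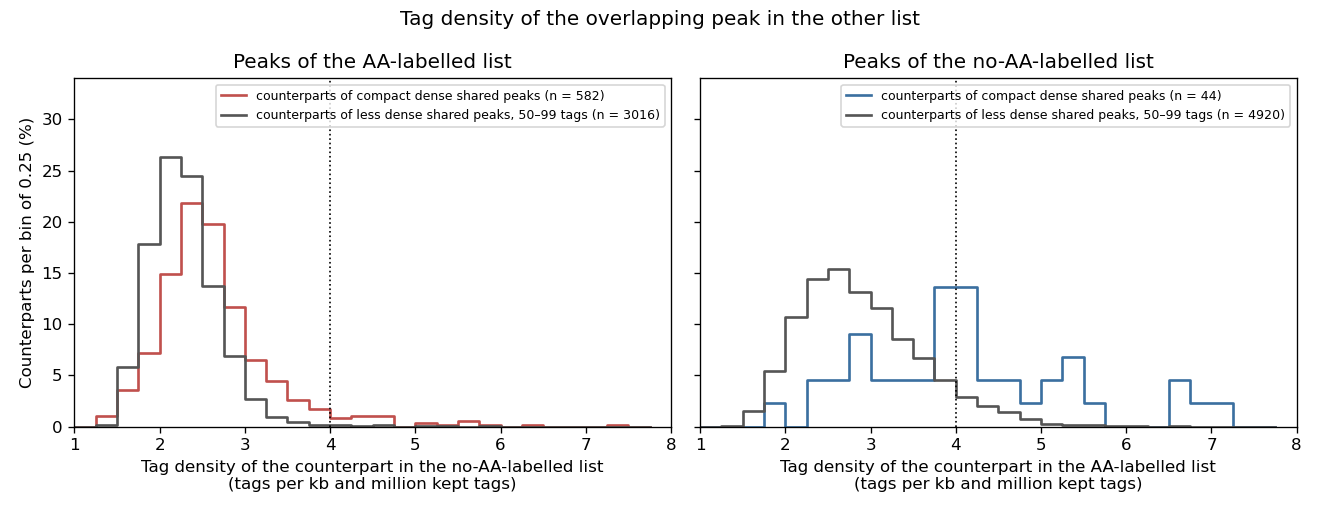
Tag density of the overlapping peak in the other list, in bins of 0.25 (tags per kb and 1000000 kept tags), as a percentage of peaks, for AA-labelled peaks (left) and no-AA-labelled peaks (right). Coloured lines are counterparts of the 582 and 44 members and dark lines those of less dense shared peaks with 50 to 99 tags; the coloured lines lie further right, and counterparts of density 8 or more are outside the axis.

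Some members had a weak counterpart. The lowest no-AA-labelled densities under AA-labelled members were 1.43 at chr2:124716683-124717222 (28 AA-labelled and 18 no-AA-labelled tags), 1.47 at chr14:23940809-23941873 (55 and 19 tags) and 1.48 at chr10:33957553-33958386 (44 and 14 tags). Then came 1.49 at chr3:157315339-157316049 (34 and 14 tags) and 1.496 at chr7:22937008-22938052 (50 and 31 tags). The log2 density ratios of these 5 were 1.43 to 1.61.

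The lowest AA-labelled density under a no-AA-labelled member was 1.93, at chr5:37051816-37052382, with 13 AA-labelled against 39 no-AA-labelled tags (log2 ratio -1.07, interval -2.10 to -0.13). The next were 2.30 at chr14:106876688-106878293 (44 and 94 tags), 2.36 at chr5:24723314-24724273 (27 and 81 tags), 2.66 at chr1:85163079-85164309 (39 and 66 tags) and 2.70 at chr4:145727532-145728964 (46 and 82 tags). The intervals of all 5 ratios lay below 0. They were picked as the extremes of 44 peaks, and the intervals are not adjusted for that.

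The density ratio over all members followed the list from which they were chosen. In the 582 pairs chosen by AA-labelled density the log2 ratios had a median of 0.80 (0.77 to 0.82 over pairs), and the AA-labelled library was over 2-fold denser in 139 (23.9%), where 1.52% of all compact pairs were. In the 44 pairs chosen by no-AA-labelled density the median was -0.21 (-0.36 to 0.01). There the AA-labelled library was over 2-fold less dense in 2 (4.55%), where 0.0255% of all compact pairs were. The chromosome 10 pair among them had an AA-labelled peak of 3564 bp and is not itself a compact pair. The median of all 23546 pairs was 0.20. Nothing is read from these counts, since the rule used the density of one side of each ratio.

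Tags per peak, scaled to the kept tags of each library but not divided by length, gave median log2 ratios of 0.89 and 0.22 in the pairs of AA-labelled and of no-AA-labelled members, beside 0.49 over all compact pairs. In unscaled tags the medians were 0.26 and -0.41, so that of the no-AA-labelled members changed sign. Over 2-fold more scaled tags in the AA-labelled peak were found in 220 (37.8%) and 8 (18.2%) of them, where 18.0% of all compact pairs had as many. These are shares of unlike sets, since both peaks of a compact pair are within the limits. Of the members, 23 of 582 AA-labelled and 6 of 44 no-AA-labelled ones had a counterpart of 2000 bp or longer. All 6 of the latter were among the 8. Over 2-fold fewer were found in 0 and 1 of them, where 0.336% of all compact pairs had as few. Fold enrichment gave medians of 0.36 and -0.19, beside 0.22 over all pairs. The AA-labelled fold was over 2-fold higher in 25 of the 582 pairs, where 2.48% of all compact pairs were, and over 2-fold lower in 1 of the 44, where 0.200% were.

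Sharing itself went with density. Of the compact autosomal peaks with a density of at least 4, 582 of 715 AA-labelled (81.4%, 78.3% to 84.2%) and 44 of 51 no-AA-labelled ones (86.3%, 73.7% to 94.3%) overlapped a peak of the other list. At any density it was 46.1% and 42.5%. In the AA-labelled list the share was 39.8% at a density of 1.5 to 2, 50.4% at 2.5 to 3, 81.0% at 4 to 5 and 85.7% at 5 or more. For no-AA-labelled peaks these shares were 36.5%, 65.3%, 88.9% and, on 12 of 15 peaks, 80.0% (51.9% to 95.7%), whose interval covers the share at 4 to 5.

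Among peaks of 50 to 99 tags, 85.1% of the dense and 63.2% of the less dense AA-labelled peaks were shared. Of the no-AA-labelled ones it was 88.4% and 64.9%. Among peaks with a p of at most 1e-20 nearly all were shared at any density, which leaves little room for a difference. There 377 of 387 dense AA-labelled peaks (97.4%, 95.3% to 98.8%) and 1100 of 1140 less dense ones (96.5%, 95.3% to 97.5%) were shared, and 29 of 29 and 778 of 786 in the no-AA-labelled list. Of the members, 377 of 582 AA-labelled and 29 of 44 no-AA-labelled peaks had such a p, against 4.77% and 3.04% of the less dense shared peaks, which held fewer tags. In the caller's score, where 200 is a p of 1e-20, members had medians of 244 and 226. Less dense shared peaks of 50 to 99 tags had medians of 137 and 112, with upper quartiles of 204 and 164.

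**Figure D4:**
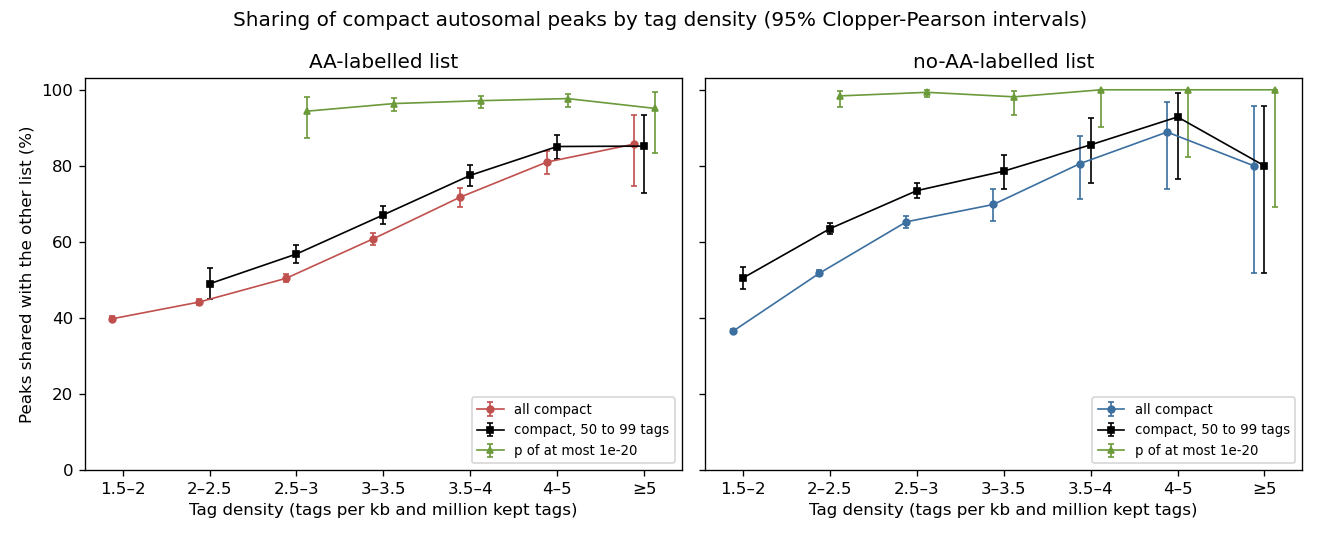
Percentage of compact autosomal peaks that overlap a peak of the other list, by tag density, for the AA-labelled list (left) and the no-AA-labelled list (right), with 95% Clopper-Pearson intervals; groups of under 10 peaks are not drawn. Sharing is higher at a density of 4 to 5 than at 2 to 2.5 among all compact peaks (circles) and among those of 50 to 99 tags (squares), is lower again at 5 or more in the no-AA-labelled list (12 of 15 peaks), and lies above 94% at every density drawn for peaks with a p of at most 1e-20 (triangles).

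The 582 AA-labelled members had a median fold of 10.0 and a median of 70 tags, above the 6.89-fold and 56 tags of the 133 compact dense peaks that were not shared, at nearly the same median density of 4.29 against 4.23. The 44 no-AA-labelled members had a median fold of 12.5, against 5.25 in the 7 such peaks that were not shared. Density divided by fold had a median of 0.433 in the AA-labelled members and 0.652 in the unshared dense peaks, on the density scale. Density is an average over the whole peak, and this quotient was not checked against the caller's own local background. For no-AA-labelled peaks the quotient was 0.363 and 0.862.

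The members were spread unevenly over the chromosomes. In the AA-labelled list chromosome 1 held 84 members, 3.28% of its 2563 compact shared peaks (2.62% to 4.04%), and chromosome 8 held 65, or 3.89% of 1670 (3.02% to 4.93%). The other 17 autosomes together had 433 members, 2.23% of 19412 (2.03% to 2.45%), and ranged singly from 1.495% on chromosome 10 to 3.10% on chromosome 4. Chromosome 4 had 42 members, and chromosomes 2, 3 and 6 had 37, 36 and 33. Chromosome 19 had the fewest, 11. All compact shared peaks were also denser on chromosomes 1 and 8, at AA-labelled medians of 2.32 and 2.33, where the other autosomes had 2.22 to 2.30. The no-AA-labelled medians were 2.05 and 2.13 there and 1.93 to 2.01 elsewhere. The part of this chromosome-wide density in the number of members was not tested.

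In the no-AA-labelled list chromosome 14 held the most members, 10 of 44, or 0.776% of its 1289 compact shared peaks (0.373% to 1.42%). Chromosomes 4 and 8 held 5 each, chromosomes 5, 10, 13 and 17 held 3 each, and chromosomes 11, 12 and 15 held none. Of the 10 on chromosome 14, 5 began within its first 10 Mb, at 3122023, 4174975, 7391728, 7815227 and 9118823. A pair at 106873668 and 106877001 lay 2140 bp apart. Chromosome 14 did not stand out in the AA-labelled list, with 25 members or 2.10% of 1190 (1.36% to 3.09%).

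The share of members that began in the first 10 Mb of their chromosome was 6.36% in the AA-labelled list and 18.2% (8.19% to 32.7%) in the no-AA-labelled list. It was 6.01% and 5.94% among the less dense compact shared peaks. The 18.2% stands for 8 of 44 members, and most of these 8 are the chromosome 14 members named above. Chromosome X, outside the rule, had 28 AA-labelled and 2 no-AA-labelled shared peaks within the same limits, of 908 and 952 compact shared peaks.

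**Figure D5:**
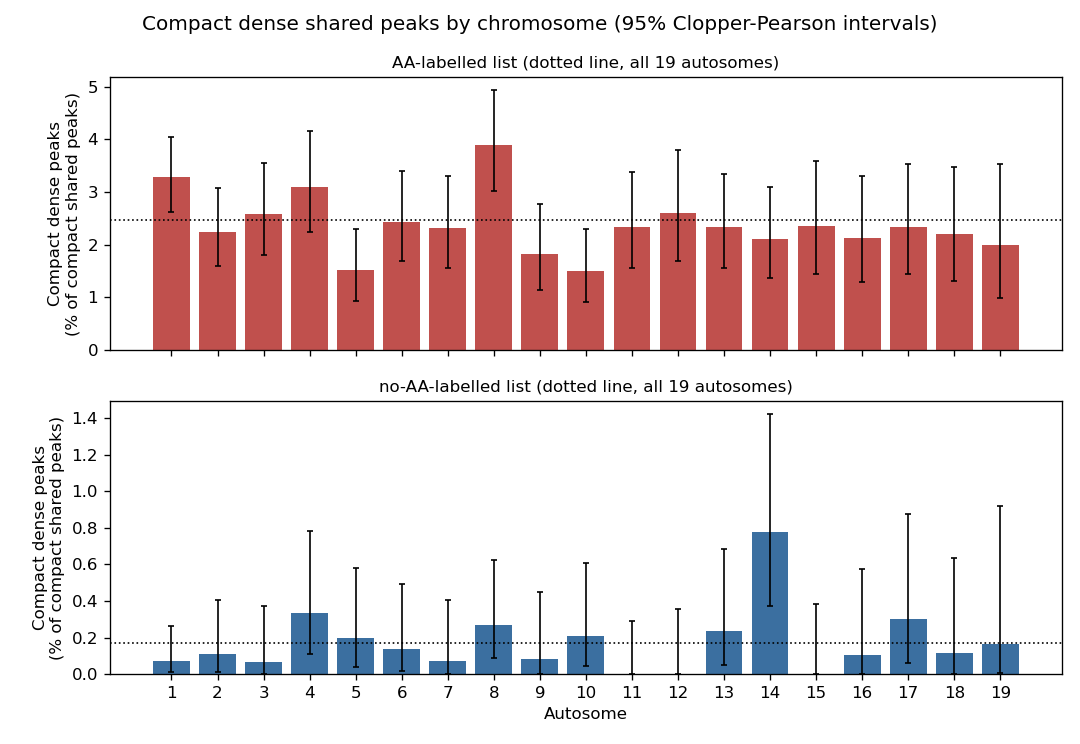
Members as a percentage of the compact shared peaks of each autosome in the AA-labelled list (top) and the no-AA-labelled list (bottom), with 95% Clopper-Pearson intervals; dotted lines give all 19 autosomes. Chromosomes 8 and 1 are highest in the AA-labelled list, and chromosome 14 is highest in the no-AA-labelled list, on 10 peaks.

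Most AA-labelled members stood alone at the scale of 1 Mb. They fell in 490 windows of that size, of which 417 held 1 member, 64 held 2 and 9 held 3 or more. The fullest was 145 to 146 Mb on chromosome 4, with 8 AA-labelled members among 56 compact shared peaks, and it was also the fullest of the no-AA-labelled list, with 3 members among 60. Next to it, 146 to 147 Mb held 5 AA-labelled members and 1 no-AA-labelled member. On chromosome 13, 66 to 67 Mb held 6 AA-labelled members among 21 compact shared peaks, and 2 no-AA-labelled ones. The no-AA-labelled members fell in 35 windows. Of these, 7 held 2 members, among them 85 to 86 Mb on chromosome 1, with 2 members in each list, and 47 to 48 Mb on chromosome 6, with 2 no-AA-labelled members and 1 AA-labelled member.

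The lists differed in how close other peaks lay. Of the AA-labelled members 36.3% (32.3% to 40.3%) had another peak of their list within 10 kb, near the 38.9% of the less dense compact shared peaks. Of the no-AA-labelled members it was 72.7% (57.2% to 85.0%), against 44.0%. Their median distance to the nearest peak of the same list was 4956 bp, against 11700 bp in the less dense no-AA-labelled peaks. In the AA-labelled list these distances were 15000 and 13540 bp. The part of the fragment length, 229 and 165 bp, in these distances was not tested.

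Another member within 10 kb was found for 6 of 582 AA-labelled (1.03%) and 6 of 44 no-AA-labelled members (13.6%), each with 1 such neighbour. Among the less dense compact shared peaks, 107 of 23063 (0.464%) and 20 of 25592 (0.0782%) had a member within 10 kb. In the AA-labelled list, chr1:10811439-10812698 and chr1:10813336-10814573 lay 638 bp apart, with densities of 4.07 in both, chr8:57990335-57991310 and chr8:57997052-57998553 lay 5742 bp apart, and chr1:85043633-85045175 and chr1:85053488-85054725 lay 8313 bp apart. In the no-AA-labelled list, beside the pairs on chromosomes 10 and 14, chr6:47722599-47723383 and chr6:47727478-47728340 lay 4095 bp apart, at densities of 5.61 and 4.91.

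At the other end were members far from any other peak. The most isolated AA-labelled member was chr11:38721820-38723251, with 84 tags, a density of 4.93, a fold of 10.9 and the nearest other AA-labelled peak about 654100 bp away. It was followed by chr12:91319361-91321080 at about 478700 bp, chr18:23563253-23564194 at 222600 bp, chr17:60922366-60924253 at 216500 bp and chr12:51889959-51891088 at 185000 bp. Among the no-AA-labelled members the most isolated was the chromosome 14 site at 86598473, at about 110400 bp. It was followed by chr18:49550967-49551932 at 54860 bp, chr8:80584747-80585589 at 37390 bp, chr5:24723281-24724295 at 31790 bp and chr3:8246236-8246640 at 30380 bp. The sites on chromosomes 14, 18 and 3 were also among the 16 pairs dense in both libraries.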

How the data were processed

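The libraries were 5hmC pull-downs from mouse ES cells, 1 with and 1 without AA. Per the submitters' processing notes the authors used BWA 0.5.9-r16 with build mm9 for alignment and MACS 1.4.2 for peaks. Per the file headers peaks were found without a control library, at a p cutoff of 1e-05, with 1 tag kept per position. The deposited tag counts are whole numbers, not scaled. The deposited scores are 10 times the −log10 p-value, and the deposited fold enrichment is a ratio to a local background within the same library. The sources used here do not give aligner settings.

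Scripts (Python 3.11.15, pandas 2.3.3, NumPy 2.4.6, SciPy 1.17.1) applied the rule to each list. They were tested on simulated lists. A counterpart is the peak of the other list with the largest overlap. Intervals at 95% are Poisson (counts), Clopper-Pearson (shares, tag ratios) or order statistics (medians), and cover counting error or spread over peaks only, since peaks of 1 library are not replicates and tags are not certain to be separate molecules. Named regions follow a rule: the 10 densest members per list; of the pairs with 2 members, the 10 of highest mean fold and the 5 highest and lowest ratios; members beside the threshold; the 5 weakest counterparts; the 3 fullest windows; and the closest and most isolated members. Members and lists were chosen with earlier results of these data known. Alternatives changed the threshold, scaling, limits, overlap and p cutoff.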

Additional observations from a re-analysis of the deposited data

How the results depend on the processing

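Of 187 values under other settings, 109 stayed inside the interval of the reported value or, for numbers of members, within a fixed factor of it. Another 68 moved past that and 10 log2 ratios changed sign. Where few peaks were counted the interval is wide, so staying inside it need not mean a close value. A median summit distance of 67 bp, beside 22 bp as reported, was counted as inside. The causes were not tested beyond what each setting changes by construction. Below, the number of members is given for the AA-labelled and then the no-AA-labelled list. With a density of at least 3 they were 3860 and 475 (log2 ratio 3.02), 6.35% of AA-labelled members had a member counterpart, 65.9% and 72.7% of dense peaks were shared, and the ratio in pairs with an AA-labelled member was 0.61. At 5 they were 54 and 12 (2.17), with 7.41% and, for AA-labelled sharing, 85.7%. Scaling to tags before removal of duplicates gave 28 and 4 (2.81), 7.14%, no-AA-labelled sharing of 66.7%, and density ratios of 0.94 (pairs with an AA-labelled member), 0.56 (with a no-AA-labelled member) and 0.58 (both). These ratios rest on 28, 4 and 2 pairs, and that sharing on 6 dense peaks. The threshold stayed at 4 there while the larger totals lowered every density, so it was in effect stricter. For scaling to tags in autosomal peaks and for no scaling it was reset to the new scale. Scaling to tags in autosomal peaks gave 105 and 207 (-0.98), member counterparts for 25.7% and 13.0%, AA-labelled sharing of 84.7%, and density ratios of 0.30, -0.63 and -0.05. Without scaling these were 44 and 195 (-2.15), 43.2% and 9.74%, and 0.12, -0.73 and -0.02. A length below 1500 bp gave 380 AA-labelled members (3.11) and sharing of 77.4%. Length less the fragment length gave 3095 and 281, sharing of 55.0% and 47.5%, and a ratio of 0.76. A tag limit scaled to depth gave 74 no-AA-labelled members (2.98), and no tag limit 89 (2.86) with 6.36%. A cutoff of p of at most 1e-10 was put on both lists, so that the overlapping peak had to pass it too. There were then 29 no-AA-labelled members, sharing was 63.2% and 61.7%, and ratios were 0.75 and 0.01. Overlap of 50% of both peaks gave sharing of 77.3% and 70.6%. If the lists are exchanged, as the headers name them, the numbers are 44 and 582 (-3.73), member counterparts 36.4% and 2.75%, AA-labelled sharing 86.3%, and density ratios 0.21, -0.80 and -0.14.

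Members and pairs are those that the rule finds under each setting, so these ratios are over other pairs than the reported ones. Further settings were added after seeing the data. Without tag or length limits the no-AA-labelled list had 142 members (2.62), with 11.7% and 73.2% having member counterparts and a ratio of 0.75. With equal member numbers both shares were 18.2%, no-AA-labelled sharing was 71.7% and the ratio in pairs of 2 members was 0.43. The summit distance in those pairs was 15.5 to 67 bp over the settings run. No paired analysis was possible because there is a single library on each side, and none can be left out of a comparison of this size. In the same 16 pairs of 2 members the ratio was -0.39 with scaling to tags in autosomal peaks, -0.49 without scaling and 0.29 with scaling to tags before removal of duplicates. The counting interval of each pair is worked out from the tags in its 2 peaks, and for the pair of 43 and 88 tags it was -0.87 to 0.24.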
